A study of Bos taurus with 3 samples.

Results

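The annexins are a family of proteins that bind phospholipid membranes in the presence of calcium. A conserved core of annexin repeats carries the membrane contact, and an amino-terminal head that differs between members carries their particular partners, several of which are S100 proteins. They are known for organizing the cytoplasmic face of membranes, for trafficking of vesicles, for patching torn plasma membrane and, in the case of annexin A5, for binding phosphatidylserine on the surface of dying cells. Of 10 annexin genes looked for (ANXA1, ANXA2, ANXA3, ANXA4, ANXA5, ANXA6, ANXA7, ANXA8, ANXA11 and ANXA13), 8 had a probe set with their symbol as its single gene. ANXA7 and ANXA8 had none under those symbols and were not counted. A probe set under the symbol ANXA8L1, for which ANXA8 is a listed synonym, is described apart from the 8. The 8 genes were read by 12 probe sets, among 9155 named genes and 24016 probe sets in all. Where a gene had several probe sets, the one with the highest mean over the 3 arrays stood for it.

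Gonadal Ridge Epithelial-Like (GREL) cells are the epithelial-like somatic cells of the bovine fetal ovary, and the study compared them with ovarian fibroblasts to find markers of somatic cells during development. Both GREL isolates were clonally enriched cultures of polygonal cells from collagenase-dispersed ovaries of Bos taurus fetuses, labelled as 130 days of gestation, and the study's methods place 1 of the fetuses a few days younger. The fibroblasts were 1 culture from the medullar stroma of an ovary of an animal over 1 year old, dispersed with collagenase at a higher concentration. Clonal enrichment is described for the GREL isolates only. All 3 cultures were grown in medium with fetal calf serum, and the labels name no treatment. RNA of each culture was hybridized to 1 Affymetrix Bovine Genome Array. The fibroblasts are adult and the GREL cells fetal, they come from different animals, and the cultures were prepared differently. Cell type, age, animal and preparation therefore cannot be told apart in any difference given here.

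Values are log2 intensities, so that a difference of 1 is 2-fold, and they were deposited rounded to steps of 0.1. The difference between any pair of values can therefore be wrong by up to 0.1 from rounding alone. The median over the probe sets was 2.9 in the fibroblasts, 3.0 in GREL isolate 1 and 2.9 in GREL isolate 2. Detection calls were not used here, and 50 genes of other organs were used as a guide to the level that unexpressed genes reach. Their median was 2.05, 1.9 and 2.0 and their 90th percentile, called the guide level from here on, 6.02, 6.2 and 6.08 in the fibroblasts and isolates 1 and 2. The guide level was itself set by brighter genes of the list, such as GH1 at 6.0, 6.2 and 6.8, and lies far above the median. Another gene of the list, MYH7, differed between the arrays, at 6.2, 4.4 and 3.0, so the list may hold expressed genes. A gene under the guide level may therefore still be expressed. The 95th percentile, 8.27, 7.93 and 7.89 in the same order, was raised by bright probe sets of POMC, APOA1, ALB and PRL. Of 6 epithelial markers 5 were higher in both isolates, and the other, CDH1, was at 3.6, 4.7 and 3.2 in the same order. Only 2 of the 6, KRT18 and KRT19, exceeded the guide level on each array, as did 1972 of all 9155 genes. The log2 of the summed level of the 6 was 10.56, 12.37 and 12.71. Of 8 markers of stromal fibroblasts 8 were lower in both, with a summed level of 13.45, 12.79 and 11.99. Some stayed bright in the GREL cultures, with 6 of the 8 above the guide level in isolate 1 and 4 in isolate 2. COL1A2 was at 12, 11.5 and 10.5. The study stained FOXL2 as a protein in granulosa and GREL cells of tissue sections. Its RNA in these cultures was low on each array, at 1.8, 1.9 and 2.0 at its probe set of highest mean. None of 6 blood, 5 endothelial, 5 granulosa or 2 germ cell markers measured exceeded the guide level on any array, and the blood markers lay between 0.9 and 2.7. Since most genes did not exceed that level on each array, this does not show that the markers were absent. The granulosa marker INHA was at 4.1, 4.4 and 4.5. The germ cell marker KIT differed under the guide level, at 5.7 in the fibroblasts and 1.5 and 2.7 in isolates 1 and 2. Of 4 smooth muscle markers 3 exceeded the guide level on each array, with ACTA2 at 10.5, 10.4 and 10.7. Their summed level was 11.31, 10.92 and 11.08, and their part in the results was not tested. In RNA from whole cultures, fewer cells that express a gene and less RNA per cell cannot be told apart.

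The question put to the annexins was which of them differed between GREL cells and fibroblasts. ANXA3 was the exception among the 8 genes counted by symbol. It was over 3-fold higher in both isolates. At the probe set that stood for each gene, the 7 other genes stayed within 2-fold of the fibroblasts in both. Thus 1 of 8 annexin genes was over 3-fold higher in both isolates, against 2.38% of all genes, and 0 of 8 were over 3-fold lower, also against 2.38% of all genes. At a threshold of 2-fold the counts remained 1 and 0, against 5.8% and 4.78% of all genes. A dimmer probe set of ANXA11, which did not stand for the gene, was over 3-fold lower in both isolates. Within 2-fold in both isolates lay 87.5% of the annexin genes and 76.6% of all genes. By any amount 4 of the 8 (ANXA1, ANXA3, ANXA4 and ANXA13) were higher in both isolates, against 41.6% of all genes, and 2 (ANXA6 and ANXA11) were lower in both, against 33.5%. The median log2 difference of the family, mean of the isolates minus fibroblasts, was 0.20, against 0.05 over all genes.

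No annexin passed an adjusted p under 0.05 in limma, a linear model with moderated variances fitted over all 24016 probe sets, and neither did any other probe set. At an unadjusted p under 0.05, limma gave 2354 probe sets higher (9.8%) and 2666 lower (11.1%). The spread in this test comes from the 2 isolates alone, and the fibroblast culture is assumed to vary like them. In simulated data the same fit called none of the changes put in. Its lack of calls here therefore does not show that genes were alike.

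**Figure D1:**
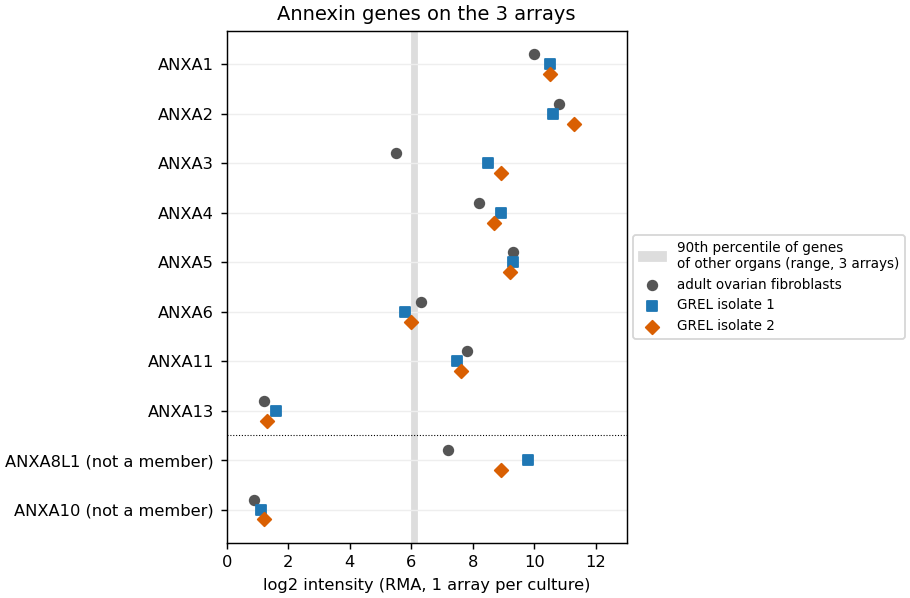
Log2 intensity (horizontal axis, RMA values) of each annexin gene at its probe set of highest mean, with circles for the adult fibroblasts, squares for GREL isolate 1 and diamonds for GREL isolate 2, each from 1 array. The grey band is the range of the guide level over the arrays, and ANXA3 lies below it in the fibroblasts (5.5) and above it in both isolates (8.5 and 8.9).

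ANXA3 encodes annexin A3, a short-headed annexin that is abundant in neutrophils and is also made in epithelia. Its log2 intensity was 5.5 in the fibroblasts, 8.5 in GREL isolate 1 and 8.9 in GREL isolate 2. Both isolates lay far above the fibroblasts, and the isolates were 0.4 apart. The difference was 3.20 (standard error 0.28, 95% confidence interval 1.59 to 4.81, limma adjusted p = 0.184), which is 8.0-fold in isolate 1 and 10.6-fold in isolate 2. The fibroblast value lay under the guide level, so the fold is less certain than the direction. It was above the median of the genes of other organs, and both GREL values exceeded even the 95th percentile. Among the 9155 genes, ordered by the smaller of the isolates' differences, ANXA3 stood 17th in the direction of GREL cells. The study listed ANXA3 among its genes over 3-fold higher on these same arrays, so its place here is not independent evidence. None of the blood markers, PTPRC, CD14, ITGAM, CSF1R, CD3E and HBB, was higher than 2.7 on any array, and the log2 of their summed level was 4.78, 4.41 and 4.62 on the arrays of fibroblasts, isolate 1 and isolate 2. Of the 6 epithelial markers 5 were higher in both isolates, but only 2 exceeded the guide level on each array. Over all 9155 genes, 1972 exceeded it on each array. The part of blood or epithelial cells in the ANXA3 difference was not tested.

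Annexins A1 and A2 bind the S100 proteins S100A11 and S100A10, respectively, through their amino-terminal heads. ANXA1, a protein induced by glucocorticoids that dampens inflammation and acts through formyl peptide receptors, was at 10 on the fibroblast array and 10.5 on both GREL arrays. The 0.50 difference (95% confidence interval 0.34 to 0.66, limma adjusted p = 0.182) was larger than the rounding error. Since the isolates round to the same value, their spread is not measured and this interval is too narrow. ANXA2, which with S100A10 holds plasminogen and its activator at the cell surface, was at 10.8 on the fibroblast array and 10.6 and 11.3 on the arrays of isolates 1 and 2. Isolate 1 was thus below the fibroblasts and isolate 2 above them. The difference of 0.15 (95% confidence interval -2.67 to 2.97, limma adjusted p = 0.881) was smaller than the 0.7 between the isolates, and among the 8 genes ANXA2 was the one in which the isolates differed most. A gap of 0.7 or more between the isolates was found in 9.37% of all genes. No direction can be given for ANXA2.

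ANXA4 encodes annexin A4, which is found in secretory and other epithelia and binds intracellular membranes. It was at 8.2 on the fibroblast array and 8.9 and 8.7 on the GREL arrays, so that both were higher. The difference was 0.60 (95% confidence interval -0.22 to 1.42, limma adjusted p = 0.282), or 1.62-fold and 1.41-fold. It was larger than the 0.2 between the isolates and smaller than 2-fold.

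ANXA5, whose product coats phosphatidylserine and is used as a probe of dying cells, was the gene whose 3 arrays agreed most closely. Its probe set of highest mean was at 9.3 in the fibroblasts, 9.3 in isolate 1 and 9.2 in isolate 2. The difference of -0.05 (95% confidence interval -0.48 to 0.38, limma adjusted p = 0.683) lay within the rounding error, and the interval reaches 2-fold in neither direction, if fibroblast cultures vary as little as the isolates did. The next brightest was at 8.4, 8.2 and 8.0. The remaining probe sets of ANXA5 were dim, 1 of them at 1.9, 1.6 and 1.5 and the other at 2.8, 2.5 and 2.5. In these 3 probe sets both isolates were lower than the fibroblasts, by 0.2 to 0.4. None of the 4 probe sets exceeded 2-fold in either isolate, and their mean differed by -0.25.

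ANXA6 encodes a large annexin with a duplicated core that acts in endosomal and cholesterol traffic. It was at 6.3 on the fibroblast array and 5.8 and 6.0 on the GREL arrays, close to the guide level, above it in the fibroblasts and below it in both isolates. The difference of -0.40 (95% confidence interval -1.22 to 0.42, limma adjusted p = 0.328) was larger than the 0.2 between the isolates.

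ANXA11 encodes annexin A11, whose long head binds PDCD6 (ALG-2) and which tethers RNA granules to lysosomes. Its 2 probe sets gave different pictures. The brighter was at 7.8 on the fibroblast array and 7.5 and 7.6 on the GREL arrays, a difference of -0.25 (95% confidence interval -0.68 to 0.18, limma adjusted p = 0.286). The dimmer was at 5.1 on the fibroblast array and 3.5 and 3.0 on the GREL arrays, a difference of -1.85 (standard error 0.35, limma adjusted p = 0.258). In both probe sets the isolates lay below the fibroblasts, but only the dimmer was over 3-fold lower in both isolates, at 0.330 and 0.233 of the fibroblast level. Isolate 1 passed 3-fold by less than the rounding error. All 3 values of the dimmer probe set lay under the guide level. Among all probe sets 1.74% were over 3-fold lower in both isolates. The mean of both probe sets gave ANXA11 a difference of -1.05, and which transcripts each probe set reads was not examined here.

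**Figure D2:**
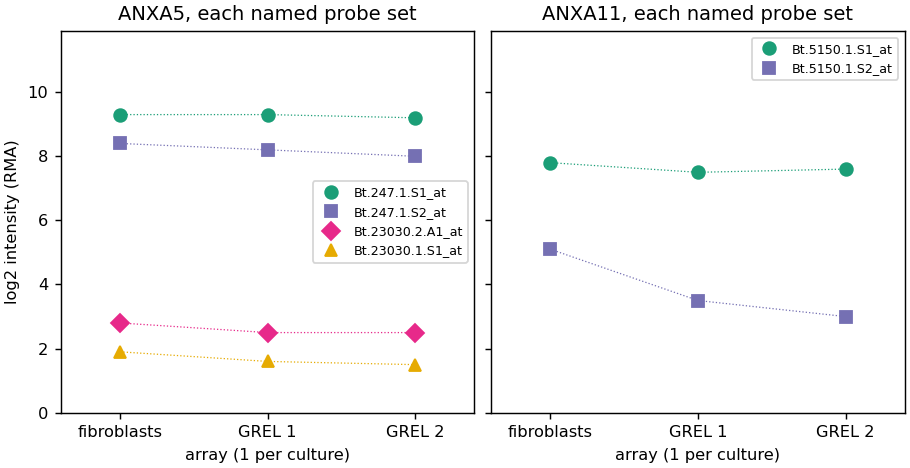
Log2 intensity (vertical axis, RMA values) of every named probe set of ANXA5 (left, 4 probe sets) and ANXA11 (right, 2 probe sets) on the fibroblast array and both GREL arrays (horizontal axis). The probe sets of ANXA5 are nearly level across the arrays, and the dimmer one of ANXA11 drops from 5.1 to 3.5 and 3.0 while the brighter one stays between 7.5 and 7.8.

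ANXA13, whose product is an annexin of gut and kidney epithelia, was at 1.2 on the fibroblast array and 1.6 and 1.3 on the GREL arrays. These values lay below the median of the genes of other organs on each array, so the difference of 0.25 (limma adjusted p = 0.566) says little about the gene. ANXA10, an annexin of the stomach that was not among the 10 genes looked for, was as low, at 0.9, 1.1 and 1.2.

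One further annexin gene was over 3-fold higher in both isolates. The symbol ANXA8L1 in the array annotation is the gene that the bovine gene table lists with ANXA8 as its synonym, and annexin A8 is known from stratified and other epithelia and late endosomes. It was not counted as a member, since its symbol is not ANXA8. Its log2 intensity was 7.2 in the fibroblasts, 9.8 in isolate 1 and 8.9 in isolate 2. These are 6.06-fold and 3.25-fold, but the isolates were 0.9 apart, a gap reached by 4.26% of all genes. The difference was 2.15 (standard error 0.63, 95% confidence interval -1.47 to 5.77, limma adjusted p = 0.286). With ANXA8L1 counted, a choice made after its values were seen, 2 of 9 annexin genes were over 3-fold higher in both isolates and 0 of 9 lower, against 2.38% of all genes in each direction.

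**Figure D3:**
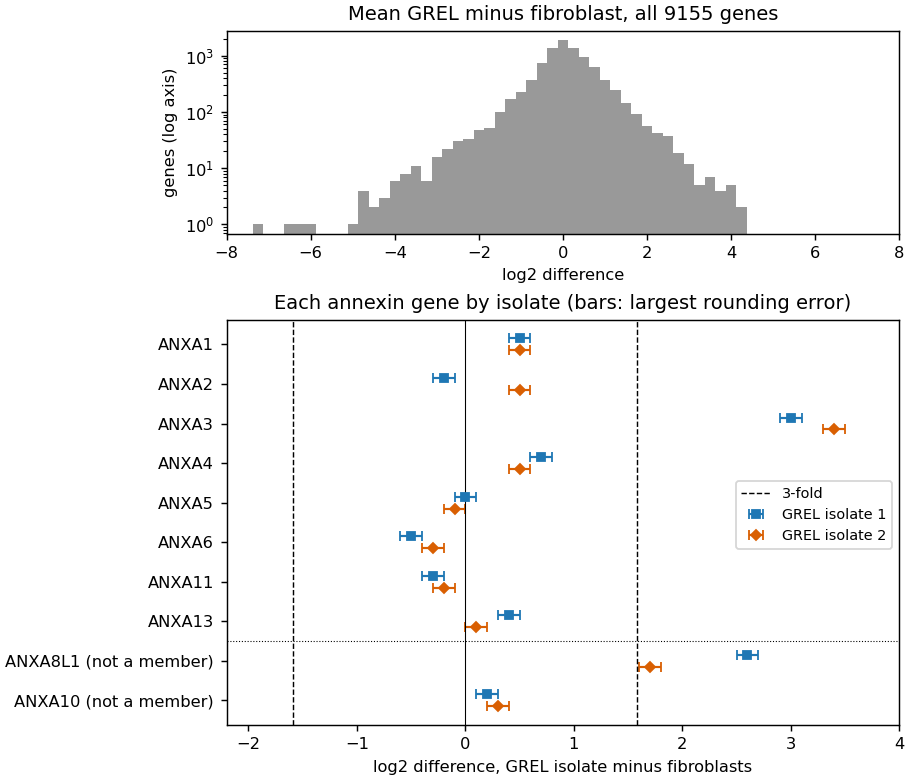
Top, number of genes (vertical axis, log scale) by log2 difference (GREL mean minus fibroblasts), for 9155 genes. Bottom, the difference (horizontal axis) of each annexin gene in GREL isolate 1 (squares) and isolate 2 (diamonds), with bars for the largest rounding error of 0.1 and dashed lines at 3-fold. Of the genes drawn, ANXA3 and ANXA8L1 are past 3-fold in both isolates, and ANXA2 has isolates on opposite sides of 0.

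Of 17 listed proteins that bind an annexin or act with one, 11 had a named probe set. At their probe sets of highest mean, none of the 11 was over 3-fold higher or lower in both isolates, against 2.38% of all genes in each direction. Their median log2 difference was 0.15 for the mean of the isolates, -0.1 in isolate 1 and 0.1 in isolate 2. Over 2-fold, 2 were higher in both (5.8% of all genes) and 1 was lower (4.78%). The partner of annexin A2, S100A10, was at 9.7 on the fibroblast array and 10.8 on both GREL arrays, 2.14-fold higher, and a dimmer probe set of S100A10 was at 6.5, 8.1 and 8.3, which is 3.03-fold and 3.48-fold. The dimmer probe set was thus over 3-fold higher in both isolates, in isolate 1 by less than the rounding error, and above the guide level on each array. Both probe sets of S100A10 were therefore higher in both isolates, while the ANXA2 values lay on either side of the fibroblasts. Whether S100A10 and ANXA2 differed from each other in this was not tested. S100A11, the partner of annexin A1, was at 11, 10.5 and 10.7, lower in both isolates, where ANXA1 was higher in both. S100A4, which also binds annexin A2, was at 9.1 on the fibroblast array and 9.0 and 9.7 on the GREL arrays. Isolate 1 differed from the fibroblasts by no more than the rounding error.

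The other partners over 2-fold apart were PLAT and S100B, which like PLG and PDCD6 were chosen after their values were seen. PLAT, the tissue-type plasminogen activator, was at 6.7 on the fibroblast array and 7.9 and 7.8 on the GREL arrays. S100B, a calcium sensor that binds annexin A6, was at 6.6, 5.4 and 5.5. Plasminogen itself (PLG) was dim, at 2.0, 1.7 and 1.8. PDCD6, the partner of annexin A11, was at 7.1, 6.9 and 7.2. No partner passed limma over all probe sets, and the adjusted p was 0.182 for S100A10, PLAT and S100B.

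Of 18 listed genes of plasma membrane repair, annexins left out, 15 were measured. One, CAV1, was over 3-fold higher in both isolates, and 0 were over 3-fold lower, against 2.38% of all genes in each direction, with a median log2 difference of -0.05. Over 2-fold, 1 was higher (5.8% of all genes) and 2 were lower (4.78%), EHD2 and SMPD1. CAV1 encodes caveolin 1, the coat protein of caveolae. It was at 7.6 on the fibroblast array and 9.2 and 9.7 on the GREL arrays, 3.03-fold and 4.29-fold higher (limma adjusted p = 0.258), and a dimmer probe set was at 1.9, 4.1 and 4.6. Isolate 1 passed 3-fold by less than the rounding error. CAVIN1, which shapes caveolae with it, was at 9.2, 9.3 and 9.4, and EHD2, an ATPase at the neck of caveolae, was lower in both isolates, at 7.5, 6.0 and 6.2. SMPD1, a sphingomyelinase of lysosomes, was at 5.9, 4.8 and 4.7. CAVIN1, EHD2 and SMPD1 were chosen after their values were seen.

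Of 18 listed genes for the exposure of phosphatidylserine and its recognition, 11 were measured and none was over 3-fold apart in both isolates, against 2.38% of all genes in each direction. Their median log2 difference was -0.40 for the mean of the isolates, against 0.05 over all genes. Taken by isolate it was nearer to that of all genes, at -0.1 in isolate 1 and -0.3 in isolate 2, against 0 and 0.1. Over 2-fold, 1 gene was higher (5.8% of all genes) and 0 were lower (4.78%). PLSCR3, a phospholipid scramblase chosen after its values were seen, was at 6.3, 5.3 and 4.9, exactly 2-fold lower in isolate 1 and so not counted. The gene over 2-fold higher was MERTK, a receptor for bridged phosphatidylserine, chosen after its values were seen, with 1.9 on the fibroblast array and 3.3 on both GREL arrays, which is under the guide level throughout.

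**Figure D4:**
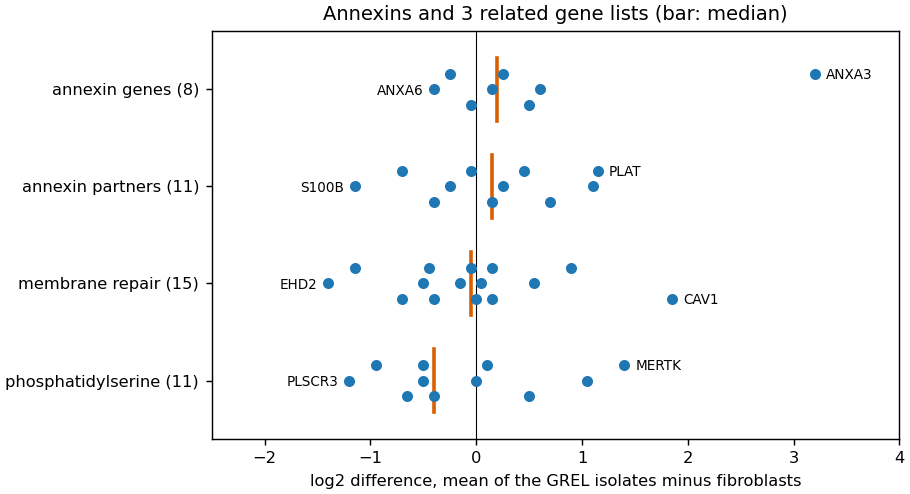
Each point is a measured gene of the annexin family or of 3 related lists, placed on the horizontal axis by its log2 difference (GREL mean minus fibroblasts). Brackets give the number of genes and orange bars the medians. The highest and lowest gene of each list is named, and ANXA3 at 3.20 lies beyond every gene of the other lists, of which CAV1 at 1.85 is the highest.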

How the data were processed

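Expression was measured on 3 Affymetrix GeneChip Bovine Genome Arrays, 2 of GREL isolates and 1 of fibroblasts. The deposited log2 values were made by the authors with RMA background subtraction and quantile normalization, for which the submitters' notes name Partek 6.5, and are rounded to steps of 0.1. Leaving out 112 control probe sets of 24128 left 24016 to test, and 0 value columns were left unused. The platform annotation, which is not recent, gave 1 symbol for 13292 probe sets and several for 86, and left 10638 unnamed here. The gene identifiers of 13263 are held by the current bovine gene table, under 0 different symbols. Coordinates and sequences are not given, because the genome build is not given in the sources used here.

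GREL cells were compared with fibroblasts in R 4.3.3 with limma 3.58.1 (lmFit, eBayes, 1 residual degree of freedom, 0.547 prior degrees of freedom), with Benjamini-Hochberg adjustment over all probe sets at a threshold of 0.05. Confidence intervals at 95% come from that fit. Tested on simulated data, the fit recovered the size of changes but made no calls. The share of changed probe sets in the simulation was not matched to these data. It therefore does not settle which sizes of change the fit could call here. Tables were made in Python 3.11.15 with pandas 2.3.3. An exact permutation of 2 arrays against 1 can give no p below 0.333. The p-values measure only the spread between 2 cultures, and the number of arrays limits the precision.

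The members and gene lists (annexin partners, membrane repair, phosphatidylserine, markers of 7 cell types, and genes of other organs) were chosen with earlier results of these data known. All members were named, with list genes over 3-fold apart in both isolates and up to 3 partners of a named annexin in the order of the list, and any other gene is marked as chosen after its values were seen. Alternatives were an intensity trend, a robust prior, the methods' ANOVA, a filter on dim probe sets, renormalization, centring, other ways to give a gene 1 value, a 2-fold threshold, and leaving out either isolate.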

Additional observations from a re-analysis of the deposited data

How the results depend on the processing

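The limma fit over all probe sets made 0 calls in either direction (2354 higher and 2666 lower at an unadjusted p under 0.05). The counts stayed 0 with an intensity trend, with dim probe sets left out, after renewed quantile normalization, after centring on the medians and in the methods' ANOVA (186 higher and 208 lower at an unadjusted p under 0.05). A robust prior gave 571 higher and 618 lower, ANXA1 among them (adjusted p = 0.0452), whose isolates round to the same value. Values spread at random within their rounding step gave medians over 20 draws of 279.5 calls higher and 365.5 lower, with ANXA3 called in 20 of 20 (median adjusted p = 0.0289). The adjusted p of ANXA3 was 0.184 in the limma fit reported. Of 62 values of single members under alternatives with a test, 60 kept their call, these 2 passed the threshold and 0 turned to the opposite direction, with ANXA5 at exactly 0 after renewed quantile normalization. The family count over 3-fold higher was 1 in all settings but that with ANXA8L1, where it was 2, and the count lower was 0 in all but that with the dimmest probe set of each gene, where ANXA11 made it 1. Both were added after the data were seen. The family median was 0.20, with 0.30 without isolate 1, 0.20 without isolate 2 and 0.15 to 0.25 in the other settings. ANXA2 was at a difference of -0.20 without isolate 2 and of 0.50 without isolate 1. With dim probe sets left out 7 members remained, and ANXA13 had no value. The methods' ANOVA covered 20503 probe sets, because those with equal values in both isolates were left out. ANXA1 was among those left out. No paired analysis was possible because the fibroblasts are a single culture. With 1 fibroblast array, the variation between fibroblast cultures was not measured.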
